A study of Homo sapiens with 15 samples.

Results

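The genes described here are 54 genes of mitosis, the step in which a cell divides its copied chromosomes between daughter cells. They were taken from a fixed list of names, grouped by role, and 53 of them were measured, out of 18377 genes. The gene left without a value is CENPA, the histone variant of the centromere, whose array feature carries several symbols. RNA came from 2 established prostate cancer lines, PC3 (from a bone metastasis, per the labels) and DU145 (from a brain metastasis). Cells of each line were left untransfected or were reverse transfected with 20 nM of a mimic, namely miR-224, miR-452 or the scrambled control called Scrambled no. 2, and RNA was extracted after 48 h. A mimic is a synthetic RNA that supplies a mature microRNA, and the scrambled mimic controls for transfection itself. The untransfected cells are not stated to have received the Lipofectamine reagent, so reagent and transfected RNA cannot be told apart in a comparison with them. There were 15 Affymetrix Human Gene 1.0 ST arrays, 2 in every group but 1: DU145 with the scrambled mimic kept a single array after the authors dropped its badly performing partner.

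Entry into mitosis is driven by the kinase CDK1 with its B-type cyclins. Aurora and Polo-like kinases then build the spindle, kinesins move chromosomes and microtubules, and kinetochores attach chromosomes at the centromere. The spindle checkpoint holds back the anaphase-promoting complex until every chromosome is attached, after which securin and cyclin B are destroyed and the cell divides. Transcripts of these genes peak in G2 and mitosis, and cycling tumour cells hold them at high levels. RNA was taken from whole cultures, so fewer cells in mitosis and less RNA per cell cannot be told apart.

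The mature sequences of the transfected microRNAs are shown because they define the treatments. RefSeq (GRCh38.p14) places both genes on the minus strand of chromosome X, with the 5p arm of miR-224 at chrX:151958628-151958652 and that of miR-452 at chrX:151959678-151959699. Capitals mark the seed, bases 2 to 8, through which a microRNA mostly recognises its targets. The labels do not say which arm each mimic supplied, so both arms are given, and no seed is shared between them.
hsa-miR-224-5p: uCAAGUCAcuagugguuccguuuag
hsa-miR-224-3p: aAAAUGGUgcccuagugacuaca
hsa-miR-452-5p: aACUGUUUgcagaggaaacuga
hsa-miR-452-3p: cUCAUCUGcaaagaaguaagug

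Promoters of the mitosis genes share letters that the list did not use. CCAAT is the letters of the CCAAT box, bound by NF-Y, and TTTGAA is the core of the cell cycle homology region. Both were searched on both strands in the 250 bases before and 50 bases after each RefSeq start (GRCh38.p14), and the motifs may overlap each other. Of the 53 measured genes, 46 had a promoter in the table. AURKA, FOXM1, BUB3, TTK, BIRC5, UBE2C and TPX2 had none there. CCAAT was present in 73.9% of the 46 genes and in 42.2% of all 14210 measured genes with a promoter. TTTGAA was present in 71.7% of the 46 and 15.7% of all, and both together in 52.2% and 8.09%. Genes with several promoters were counted as holding a motif if any promoter did, with a mean of 1.26 promoters per mitosis gene and 1.41 per gene overall. Over single promoters the shares were 67.8% and 62.7% of 59 mitosis promoters, the unmeasured CENPA included. They were 34.6% and 12.3% of the 20069 promoters of measured genes, and 34.6% and 15.2% of all 35116 promoters of this length. A match is a description of the letters and not a bound site.

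Shown are the 200 bases before the start of 4 genes, with both motifs in capitals. Only the first promoter listed for each gene was used. Of the genes given below on every array, these 4 had the smallest p over the treatments among those holding both motifs in this window. CDC25C, with a smaller p than HMMR, holds both motifs in another of its promoters and was not considered. That the 4 genes shown hold both motifs was thus fixed by the choice. They are the kinesin gene KIF23 (chr15:69414149-69414348), the passenger complex gene CDCA8 (chr1:37692316-37692515), the anaphase gene CDC20 (chr1:43358781-43358980) and the spindle gene HMMR (chr5:163460432-163460631), all on the plus strand. CCAAT on the minus strand reads ATTGG, and TTTGAA reads TTCAAA.
KIF23: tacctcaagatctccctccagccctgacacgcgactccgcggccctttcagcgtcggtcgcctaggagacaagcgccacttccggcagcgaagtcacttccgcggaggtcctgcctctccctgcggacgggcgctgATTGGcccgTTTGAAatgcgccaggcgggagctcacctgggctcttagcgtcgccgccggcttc
CDCA8: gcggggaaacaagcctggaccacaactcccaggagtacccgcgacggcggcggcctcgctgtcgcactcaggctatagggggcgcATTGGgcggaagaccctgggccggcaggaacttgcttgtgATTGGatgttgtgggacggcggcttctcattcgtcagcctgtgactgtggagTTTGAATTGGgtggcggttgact
CDC20: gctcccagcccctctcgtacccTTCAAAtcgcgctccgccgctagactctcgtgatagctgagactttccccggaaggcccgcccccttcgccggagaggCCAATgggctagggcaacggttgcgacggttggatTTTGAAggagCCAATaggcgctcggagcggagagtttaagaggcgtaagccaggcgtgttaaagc
HMMR: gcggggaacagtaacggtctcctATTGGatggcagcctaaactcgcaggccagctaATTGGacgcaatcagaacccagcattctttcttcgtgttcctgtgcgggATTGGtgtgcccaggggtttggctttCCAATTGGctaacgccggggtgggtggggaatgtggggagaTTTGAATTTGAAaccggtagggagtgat
The 4 windows hold between 1 and 5 copies of CCAAT and 1 or 2 of TTTGAA. In KIF23 and CDC20 a CCAAT lies 4 bases from TTTGAA, and in CDCA8 they overlap.

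Deposited values are log2 levels, normalized separately in each line, so no level is compared between lines. Replicate arrays correlated with r between 0.992 and 0.998. The upper quartile of all features was 8.47 to 8.52 on the untransfected PC3 arrays and 8.35 to 8.44 on the transfected ones, and 7.93 against 7.75 to 7.81 in DU145. Values were thus spread more widely on the untransfected arrays, and the part of this in the results was not tested beyond the alternatives given below. Of the epithelial markers, KRT8, KRT18 and KRT19 lay between 10.0 and 12.2. EPCAM lay at 6.85 to 9.01 in PC3 and 7.27 to 9.07 in DU145, CDH1 at 6.73 to 7.30 and 8.38 to 8.93, and CDH3 at 6.90 to 7.09 and 9.54 to 10.2. KLK2 and KLK3, androgen-regulated prostate genes, lay between 5.59 and 6.82. Leukocyte markers lay between 5.00 (PTPRC) and 6.66 (CD14), and endothelial markers between 4.96 (PECAM1) and 6.43 (CDH5). Of the fibroblast markers, DCN, LUM and PDGFRB lay between 4.69 and 6.56, COL3A1 between 6.39 and 7.32, and COL1A1 at 8.25 to 8.63 in PC3 and 7.0 to 7.6 in DU145. Against untransfected cells, 1, 1 and 0 of 6 epithelial markers passed as lower with the scrambled mimic, miR-224 and miR-452 in PC3, and 2, 3 and 3 in DU145, with 1 higher (miR-452 in PC3). None of the other lists had a lower call. The numbers higher, in the same order, were 1, 0 and 1 (PC3) and 1, 0 and 1 (DU145) of 4 leukocyte markers, 0, 0 and 0 and 0, 0 and 1 of 4 endothelial markers, 1, 0 and 2 and 0, 1 and 1 of 5 fibroblast markers, and 0, 0 and 0 and 1, 1 and 2 of the 2 androgen-regulated genes. The shares of all genes that were lower or higher in these comparisons are given below with the mitosis genes. The part of the marker changes in the results was not tested. Each change below is a difference of log2 group means ± its standard error in limma. A gene is said to have passed, risen or fallen where the Benjamini-Hochberg adjusted p, taken over all 18377 genes, was under 0.05. Nothing in the labels shows that replicate arrays came from different cultures, so the p-values cover no more than the spread between arrays, which may be technical.

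Against untransfected cells, most mitosis genes fell with all 3 RNAs in PC3 and with miR-452 in DU145, and a minority with the scrambled mimic and miR-224 in DU145. In PC3, 42 of 53 passed as lower with the scrambled mimic, where 10.9% of all genes did, and the median change was -0.39. With miR-224 it was 38 (6.85% of all genes), median -0.41, and with miR-452 44 (14.1%), median -0.42. None passed as higher, where 3.32%, 2.84% and 8.12% of all genes did. In DU145, 25 passed as lower with the scrambled mimic (9.22% of all genes), 18 with miR-224 (15.5%) and 41 with miR-452 (19.9%). None passed as higher, where 2.6%, 5.44% and 8.31% of all genes did. With the scrambled mimic 2 genes and with miR-224 4 genes lay above 0. The DU145 medians were -0.40, -0.27 and -0.43. Medians over all genes lay between -0.02 and 0.03. These comparisons share the untransfected arrays of their line, so they are not independent of each other.

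Single arrays show the same shift. The median level over the 53 genes was 9.64 and 9.56 on the untransfected PC3 arrays and between 9.02 and 9.22 on the 6 transfected ones. In DU145 it was 9.52 and 9.54 against 9.07 to 9.37 on 5 arrays. Both untransfected arrays lay above all transfected arrays for 46 of 53 genes in PC3, where 11.5% of all genes did so, and for 43 in DU145, where 26.5% did. The 7 PC3 exceptions were AURKB, CCNA2, CDC25B, KIF11, CENPF, SKA1 and PTTG1. No mitosis gene had both untransfected arrays below all others, where 12.8% of all genes did in PC3 and 25.8% in DU145.

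**Figure D1:**
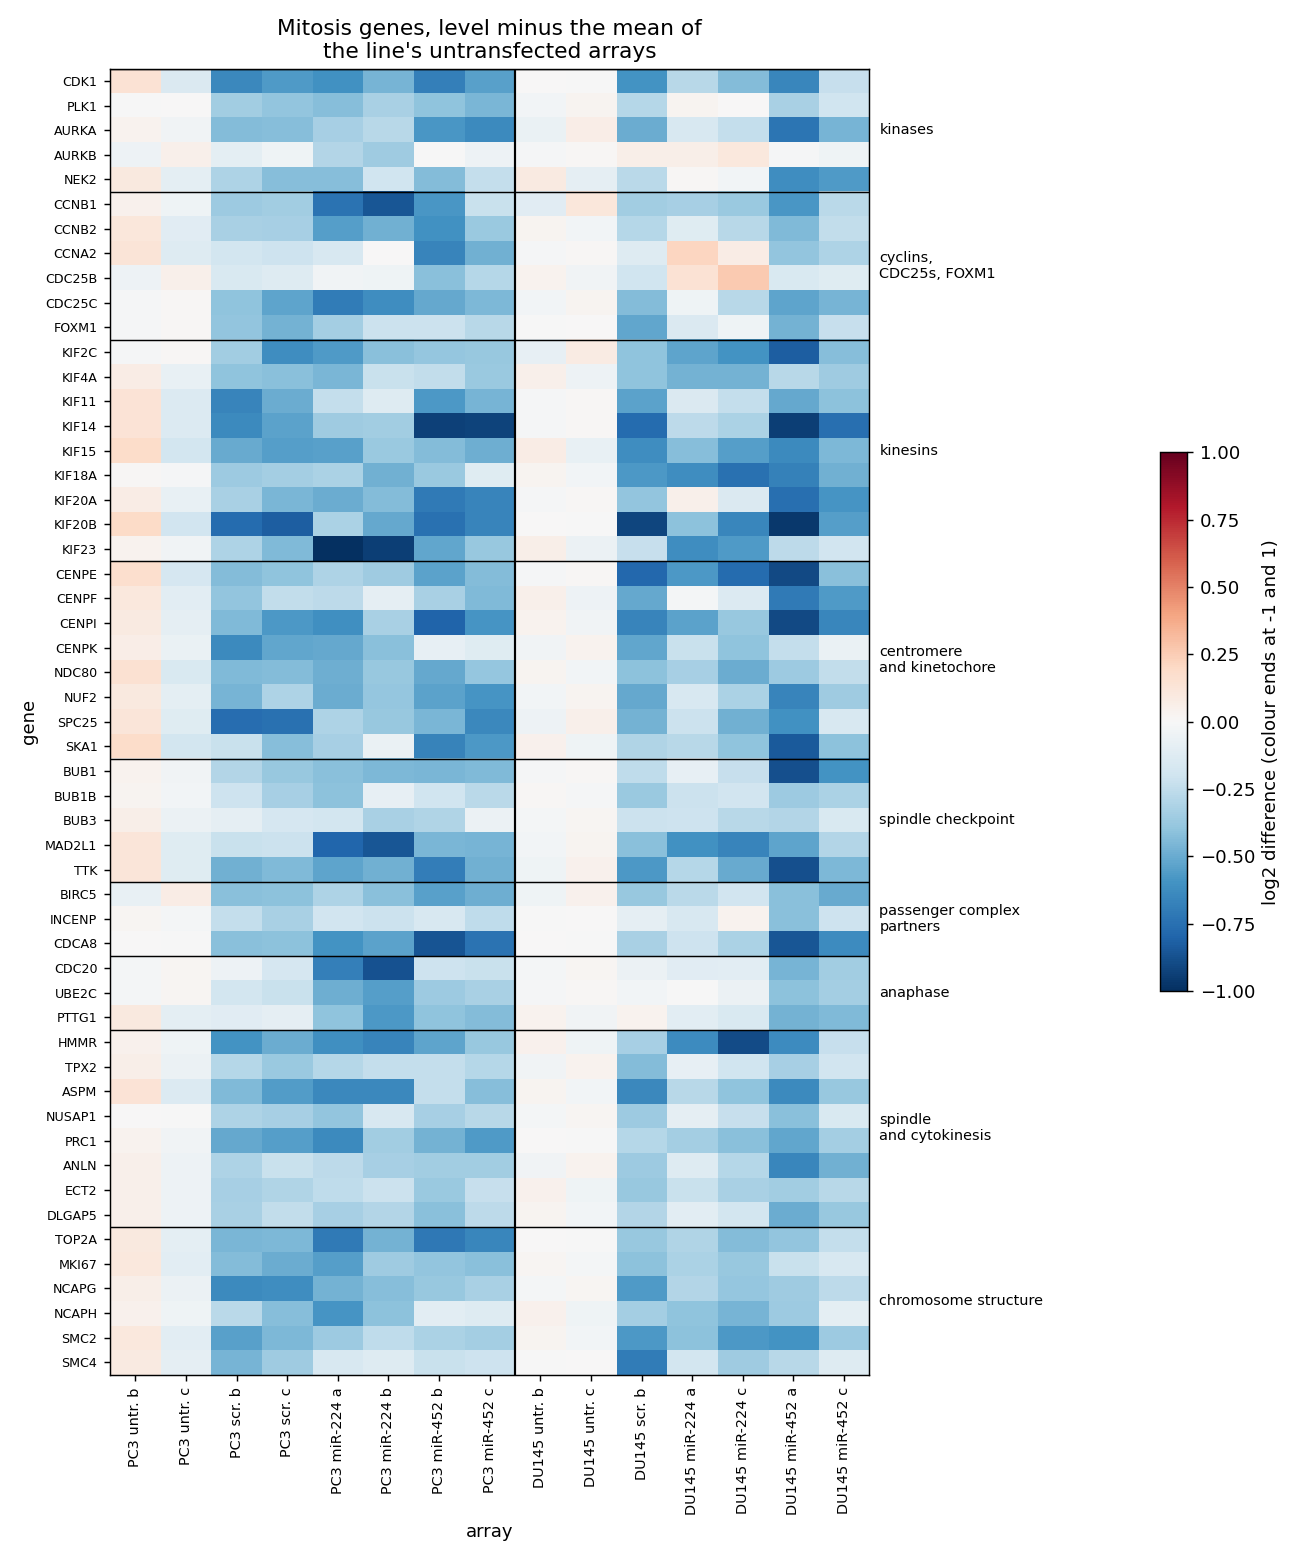
Level of each of 53 mitosis genes (rows, by role) on each of 15 arrays (columns), as the log2 difference from the mean of the line's 2 untransfected arrays. Blue, lower than untransfected, fills most transfected columns in both lines, with PC3 miR-224 darkest in KIF23 and PC3 miR-452 darkest in KIF14.

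Other genes in the same range of array signal lay less far below 0. Among 3416 other genes whose mean PC3 level lay between the quartiles of the mitosis genes (8.65 to 10.09), the median change with the scrambled mimic was -0.15 and 19.6% passed as lower, against -0.39 and 79.2% for the mitosis genes. With miR-224 the figures were -0.04 and 13.9% against -0.41 and 71.7%, and with miR-452 -0.14 and 24.1% against -0.42 and 83.0%. Among 2599 such genes in DU145 the 3 medians were -0.17, -0.15 and -0.21, and the shares lower were 15.1%, 25.2% and 33.6%, against 47.2%, 34.0% and 77.4% of the mitosis genes. These figures are descriptions, with no test of the set.

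Counts depended on single arrays more than medians did. Without untransfected array b, 2 PC3 genes passed as lower with the scrambled mimic (NCAPG and SPC25), 13 with miR-224 and 15 with miR-452. Without scrambled array c the first count was 13, without miR-224 arrays a or b the second was 16 or 24, and without miR-452 array b the third was 27. In DU145, without untransfected array b or c, limma passed 0 and 0 with the scrambled mimic, 3 and 6 with miR-224, and 11 and 10 with miR-452. Without miR-224 array c the miR-224 count was 5. Leaving out a miR-224 array, a or c, brought the scrambled count to 15. Leaving out a miR-452 array, a or c, brought it to 40 and the miR-224 count to 32. Quantile normalization within the line, which removes the difference in spread, left 27 for the scrambled mimic in PC3, 11 for it in DU145, 9 lower and 2 higher for miR-224 in DU145 and 24 for miR-452 in DU145. The 6 medians stayed below 0 under every alternative, between -0.51 and -0.15.

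**Figure D2:**
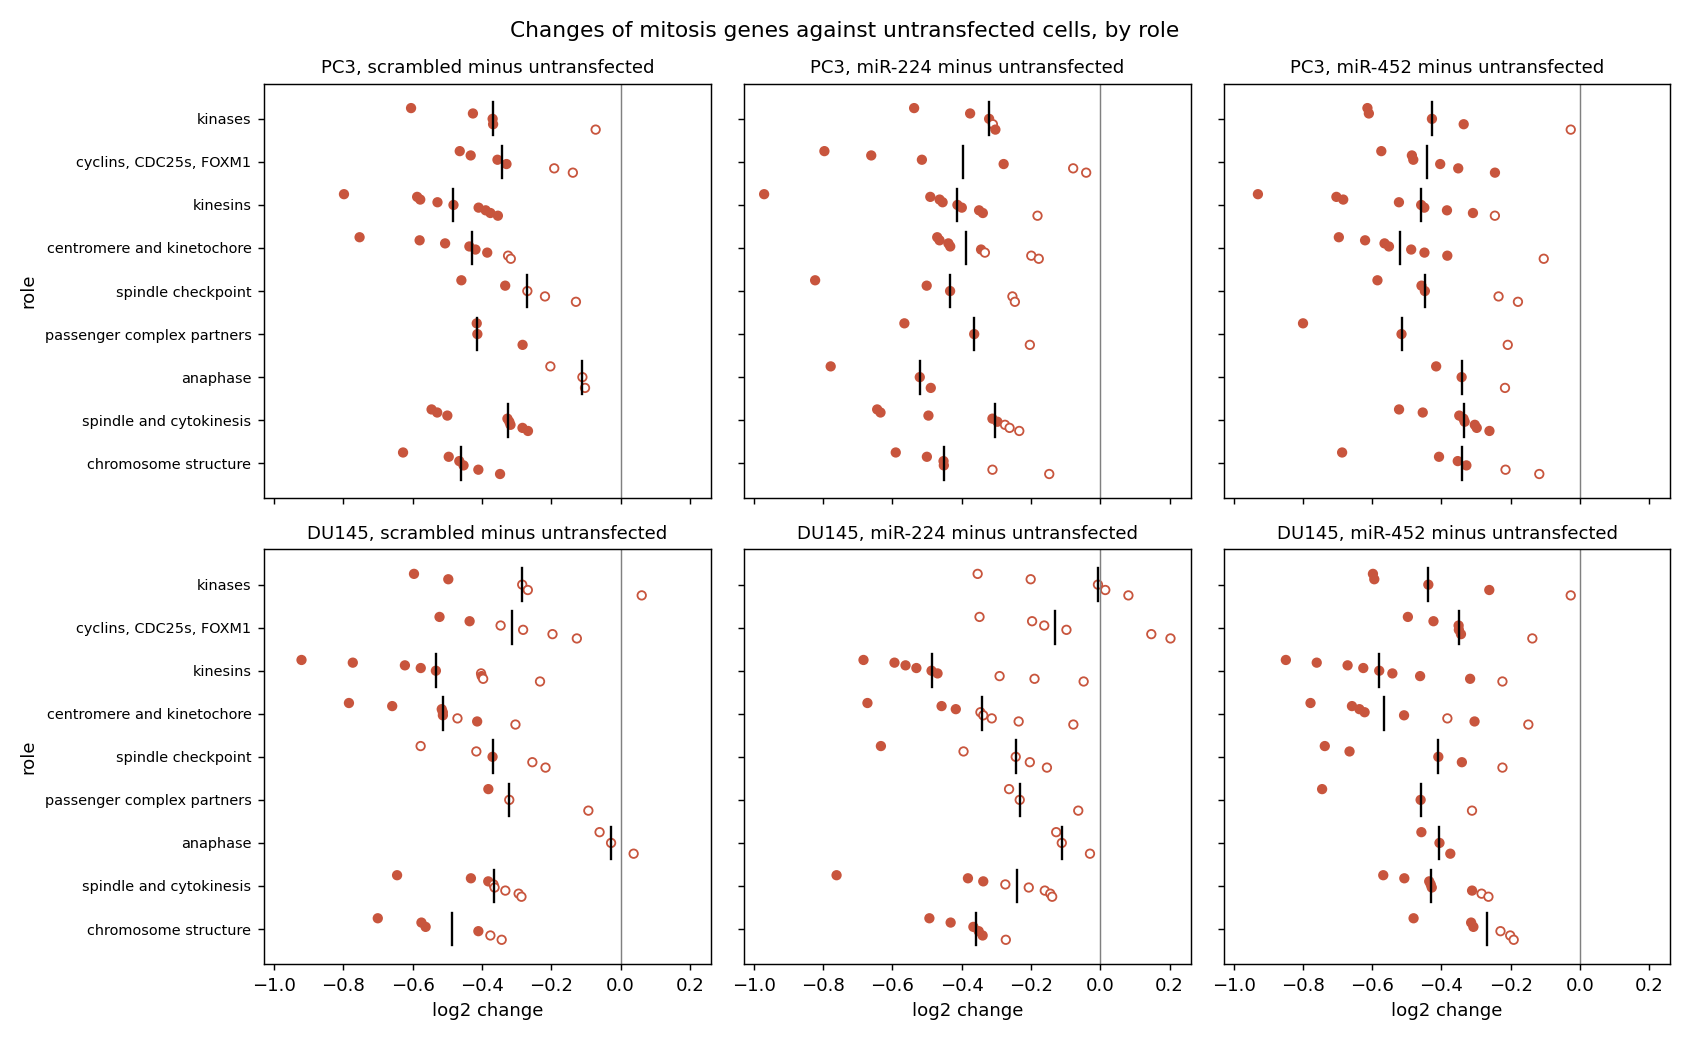
Log2 change of every mitosis gene against untransfected cells, by role (rows), for the 3 transfected groups of PC3 (top) and DU145 (bottom). Filled points passed at an adjusted p under 0.05, open points did not, and black bars are medians. By median, with the scrambled mimic, kinesins lie furthest left and anaphase genes nearest 0 in both lines.

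The mimics were next set against the scrambled mimic, which shares the transfection. In PC3, 9 of 53 genes passed with miR-224 (16.8% of all genes) and 2 with miR-452 (5.22%), shares near those of all genes. There miR-224 raised 3 of 53 genes (12.1% of all genes were higher) and lowered 6 (4.65% were lower), with a median of 0.02. The 6 lower genes were CDC20, MAD2L1, KIF23, CCNB1, PTTG1 and UBE2C, and the 3 higher ones were SPC25, KIF11 and KIF20B. With miR-452, 1 gene was higher, CENPK (2.89% of all genes), and 1 lower, CDCA8 (2.33%), with a median of -0.02. In DU145 with its single scrambled array, limma passed no gene for miR-224 in either direction (1.94% of all genes). At an unadjusted p under 0.05, 15 were higher and 2 lower, the median change was 0.14, and limma with trend and robust moderation passed 5 higher and 1 lower. For miR-452 in DU145, 1 gene was lower, PTTG1 (1.52% of all genes). Both mimics are set against the same scrambled arrays in each line.

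These counts also moved with single arrays. In PC3 the miR-224 count of 9 was 5 without scrambled array c and 3 without miR-224 array b, the remaining 3 being CDC20, MAD2L1 and KIF23. The miR-452 count of 2 was 0 without scrambled array b or miR-452 array b and 1 without scrambled array c. In DU145 the miR-224 count was 5 without either miR-452 array, and the miR-452 count was 0 without any 1 of the untransfected or miR-224 arrays, 2 without miR-452 array a and 5 without miR-452 array c.

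Among the kinases, with the scrambled mimic CDK1, PLK1, AURKA and NEK2 fell in PC3, 4 of 5 kinase genes. The same 4 fell with miR-452, and with miR-224 it was AURKB that passed in place of NEK2. In DU145 2, 0 and 4 did so with the scrambled mimic, miR-224 and miR-452. Of all genes, 10.9%, 6.85% and 14.1% passed as lower in PC3 and 9.22%, 15.5% and 19.9% in DU145, in that order. These shares also apply to the counts against untransfected cells in the other roles below. No kinase gene passed for either mimic against the scrambled mimic.

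CDK1, the kinase that starts mitosis, lay at 9.77 and 9.48 on the untransfected PC3 arrays, 8.99 and 9.06 with the scrambled mimic, 9.02 and 9.16 with miR-224 and 8.94 and 9.09 with miR-452. DU145 gave 8.77 and 8.76, then 8.17, then 8.49 and 8.33, then 8.12 and 8.54. Untransfected arrays were the highest in both lines, and the 3 transfected groups overlapped in PC3. CDK1 fell by 0.60 ± 0.10 with the scrambled mimic in PC3 (adjusted p = 0.00645), by 0.54 ± 0.10 with miR-224 (0.00848) and by 0.61 ± 0.10 with miR-452 (0.0029). The last passed under every alternative. Without untransfected array b the others gave adjusted p = 0.101 and 0.0889, and without miR-224 array a the second gave 0.0625. In DU145 it fell by 0.60 ± 0.16 with the scrambled mimic (adjusted p = 0.0436), which gave 0.157 and 0.152 without untransfected arrays b and c, 0.0542 without a miR-224 array (a or c), and did not pass after quantile normalization (0.0871).

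PLK1, a kinase of spindle assembly and mitotic exit, lay at 11.08 and 11.08 on the untransfected PC3 arrays, 10.74 and 10.69 with the scrambled mimic, 10.65 and 10.76 with miR-224 and 10.68 and 10.63 with miR-452. The values in DU145 were 10.62 and 10.68, 10.37, 10.68 and 10.66, and 10.33 and 10.45. Both miR-224 arrays of DU145 thus lay at the untransfected level, and those of PC3 did not. With miR-452 PLK1 fell by 0.43 ± 0.08 in PC3 (adjusted p = 0.00392), under every alternative. The difference between lines in its miR-224 change against untransfected cells was -0.39 ± 0.11 and did not pass (adjusted p = 0.0521).

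AURKA, the kinase of spindle poles, was lowest with miR-452. It lay at 10.11 and 10.04 untransfected, 9.64 and 9.65 with the scrambled mimic, 9.74 and 9.80 with miR-224 and 9.49 and 9.44 with miR-452 in PC3. In DU145 it lay at 9.74 and 9.88, 9.31, 9.64 and 9.57, and 9.08 and 9.34. The fall with miR-452 in PC3 was 0.61 ± 0.08 (adjusted p = 0.000469) and passed under every alternative. The DU145 fall with miR-452 was 0.60 ± 0.11 (adjusted p = 0.00651, and 0.064 without untransfected array c).

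NEK2, a centrosome kinase, lay at 8.70 and 8.51 untransfected, 8.30 and 8.19 with the scrambled mimic, 8.19 and 8.41 with miR-224 and 8.17 and 8.37 with miR-452 in PC3. DU145 levels were 8.46 and 8.28, 8.10, 8.38 and 8.34, and 7.75 and 7.80. Both miR-452 arrays of DU145 lay below all other arrays of the line, and in PC3 they overlapped the other transfected groups. The DU145 fall with miR-452 was 0.59 ± 0.09 against untransfected cells (adjusted p = 0.00367, and 0.0537 without untransfected array b). AURKB, the kinase of the chromosomal passenger complex, lay at 9.22 and 9.33, 9.17 and 9.23, 8.98 and 8.92, and 9.27 and 9.22 in PC3. The miR-224 arrays were the lowest there, and the other 3 groups overlapped.

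Of the 6 genes for cyclins, CDC25 phosphatases and FOXM1, 4 passed as lower with the scrambled mimic, 4 with miR-224 and 6 with miR-452 in PC3. In DU145 the counts were 2, 0 and 5. CCNB1 and CDC25C were lowest with miR-224 in PC3, whereas CCNA2 was lowest with miR-452 in both lines.

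CCNB1, the cyclin that activates CDK1, lay at 9.69 and 9.61 on untransfected PC3 arrays, 9.28 and 9.30 with the scrambled mimic, 8.91 and 8.79 with miR-224 and 9.07 and 9.42 with miR-452. In DU145 it lay at 9.72 and 9.94, 9.48, 9.50 and 9.46, and 9.25 and 9.56. Both PC3 miR-224 arrays lay below every other PC3 array, and in DU145 the transfected groups overlapped. CCNB1 fell by 0.80 ± 0.11 with miR-224 against untransfected PC3 cells (adjusted p = 0.0011), under every alternative. Against the scrambled mimic it fell by 0.44 ± 0.11 (adjusted p = 0.0162, but 0.0715 without scrambled array c and 0.136 without miR-224 array b).

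CDC25C, a phosphatase that activates CDK1, lay at 8.01 and 8.03, 7.62 and 7.49, 7.32 and 7.40, and 7.50 and 7.57 in PC3, in the same order of groups. DU145 gave 7.54 and 7.59, 7.13, 7.52 and 7.28, and 7.03 and 7.10. Its PC3 falls against untransfected cells were 0.66 ± 0.08 with miR-224 (adjusted p = 0.000558) and 0.48 ± 0.08 with miR-452 (0.00258), both under every alternative. CDC25B, a related phosphatase, was above the untransfected arrays on both DU145 miR-224 arrays (9.37 and 9.48 against 9.26 and 9.19).

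CCNA2, the cyclin of S phase and early mitosis, lay at 9.89 and 9.64, 9.58 and 9.56, 9.61 and 9.77, and 9.10 and 9.28 in PC3. DU145 gave 9.52 and 9.54, 9.40, 9.75 and 9.61, and 9.14 and 9.22. In both lines the miR-452 arrays were below all others, and in DU145 the miR-224 arrays were above all others. The falls with miR-452 against untransfected cells were 0.57 ± 0.10 in PC3 (adjusted p = 0.00381, and 0.0596 without untransfected array b) and 0.35 ± 0.09 in DU145 (0.0214). The latter passed under 8 of 13 alternatives, the highest adjusted p being 0.362. Among those that it did not pass were leaving out untransfected array b or c or miR-452 array a, and quantile normalization (0.123).

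FOXM1, a transcription factor of G2 and mitosis genes, lay at 10.80 and 10.82, 10.41 and 10.33, 10.47 and 10.59, and 10.59 and 10.53 in PC3. In DU145 the values were 10.13 and 10.13, 9.61, 9.98 and 10.08, and 9.66 and 9.90. Its lowest group was thus the scrambled one in both lines. It fell by 0.43 ± 0.08 with the scrambled mimic in PC3 (adjusted p = 0.00829, but 0.0912 without untransfected array b and 0.0563 without scrambled array c). In DU145 it fell by 0.52 ± 0.12 (adjusted p = 0.0317, but 0.146 without either untransfected array and 0.0554 after quantile normalization).

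Kinesins are motor proteins that move along microtubules. With the scrambled mimic 9 of 9 passed as lower in PC3, and 8 did so with miR-224 and 8 with miR-452. In DU145 6, 6 and 8 passed. The largest changes with the scrambled mimic were those of KIF20B, a motor of cytokinesis, at -0.80 ± 0.12 in PC3 (adjusted p = 0.00353, and 0.0557 without untransfected array b) and -0.92 ± 0.17 in DU145 (0.0182, and 0.0888 and 0.0849 without untransfected arrays b and c). On its PC3 arrays KIF20B lay at 8.53 and 8.15, 7.57 and 7.52, 8.02 and 7.83, and 7.60 and 7.68. KIF4A has a near-identical copy, KIF4B, so its values are uncertain.

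KIF23, the motor of the central spindle and of cytokinesis, stood out with miR-224 in both lines. It lay at 10.25 and 10.19 on untransfected PC3 arrays, 9.91 and 9.78 with the scrambled mimic, 9.22 and 9.28 with miR-224 and 9.70 and 9.84 with miR-452. DU145 gave 10.54 and 10.43, 10.25, 9.87 and 9.92, and 10.23 and 10.30. In each line both miR-224 arrays were below all other arrays, and scrambled and miR-452 arrays lay together. In PC3 KIF23 fell by 0.97 ± 0.09 with miR-224 against untransfected cells, a 1.96-fold lower level (adjusted p = 9.77e-05). Against the scrambled mimic it fell by 0.59 ± 0.09 (adjusted p = 0.000945). Both passed under every alternative. In DU145 it fell by 0.59 ± 0.09 against untransfected cells (adjusted p = 0.00303). That fall passed without any 1 array, and under 12 of 13 alternatives in all (highest adjusted p = 0.165). The KIF23 change of -0.36 ± 0.11 against the single scrambled array did not pass (0.151).

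KIF14, another cytokinesis motor, was instead lowest with miR-452. PC3 values were 9.34 and 9.07, 8.57 and 8.67, 8.85 and 8.86, and 8.27 and 8.28. DU145 values were 8.96 and 8.98, 8.20, 8.70 and 8.65, and 8.03 and 8.21. The miR-452 arrays were the lowest in PC3. In DU145 they lay around the scrambled array and below the others. KIF14 fell with miR-452 by 0.93 ± 0.09 in PC3 (1.91-fold, adjusted p = 0.00014) and by 0.85 ± 0.09 in DU145 (0.00144), both under every alternative. Against the scrambled mimic the changes were -0.34 ± 0.09 (adjusted p = 0.0627) and -0.08 ± 0.11 (0.869).

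KIF11, the motor that separates spindle poles, rose in PC3 when miR-224 was set against the scrambled mimic. Its arrays gave 8.79 and 8.95 with the scrambled mimic and 9.21 and 9.32 with miR-224, against 9.58 and 9.31 untransfected. The rise was 0.40 ± 0.10 (adjusted p = 0.0214, but 0.111 without scrambled array b and 0.168 without miR-224 array b), and it did not pass after quantile normalization (0.0554). KIF18A, a motor that dampens chromosome movement, fell by 0.68 ± 0.10 with miR-224 against untransfected DU145 cells (adjusted p = 0.00269), under every alternative. Its DU145 group means were 9.02 untransfected, 8.45 with the scrambled mimic, 8.34 with miR-224 and 8.44 with miR-452, so all transfected groups lay well below untransfected cells.

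With the scrambled mimic 6 of 8 measured centromere and kinetochore genes passed as lower in each line. The PC3 counts were 5 with miR-224 and 7 with miR-452, and those of DU145 were 3 and 6. SPC25, a subunit of the NDC80 complex that binds microtubules, lay at 8.39 and 8.15, 7.51 and 7.52, 7.96 and 7.89, and 7.81 and 7.62 in PC3. The scrambled arrays were the lowest. SPC25 fell by 0.75 ± 0.10 with the scrambled mimic (adjusted p = 0.0021), under every alternative. With miR-224 it was higher than with the scrambled mimic by 0.41 ± 0.10 (adjusted p = 0.014), which did not pass without scrambled array c (0.0547), miR-224 array a (0.0805) or miR-224 array b (0.0597).

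CENPK, a subunit of the inner kinetochore, differed from the rest with miR-452. It lay at 8.53 and 8.39 on untransfected PC3 arrays, 7.82 and 7.94 with the scrambled mimic, 7.95 and 8.04 with miR-224 and 8.38 and 8.34 with miR-452. DU145 gave 9.36 and 9.43, 8.88, 9.17 and 8.99, and 9.16 and 9.33. In PC3 the miR-452 arrays lay just under the untransfected ones and above the other transfected ones. CENPK was higher with miR-452 than with the scrambled mimic by 0.48 ± 0.08 in PC3 (adjusted p = 0.00688, but 0.0511 without scrambled array b and 0.0552 without miR-452 array b). The DU145 change was 0.37 ± 0.12 and did not pass (adjusted p = 0.169).

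CENPF, a large kinetochore protein, lay at 10.49 and 10.27, 9.99 and 10.14, 10.11 and 10.29, and 10.06 and 9.93 in PC3. In DU145 it lay at 10.24 and 10.14, 9.68, 10.17 and 10.06, and 9.49 and 9.63. The DU145 miR-452 arrays were below all others, and the miR-224 arrays overlapped the untransfected ones. CENPF fell by 0.64 ± 0.09 with miR-452 in DU145 (adjusted p = 0.00316). That fall passed without any 1 array, and under 12 of 13 alternatives in all (highest adjusted p = 0.0854). CENPI, another inner kinetochore subunit, fell with miR-452 by 0.70 ± 0.11 in PC3 (adjusted p = 0.00232) and 0.78 ± 0.11 in DU145 (0.00244) against untransfected cells, both under every alternative. Its changes with the scrambled mimic were -0.51 in PC3 and -0.66 in DU145. CENPI did not pass for miR-452 against the scrambled mimic in either line.

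Of the 5 spindle checkpoint genes few fell with the scrambled mimic, 2 in PC3 (BUB1 and TTK) and 1 in DU145 (BUB1B). With miR-224 3 and 1 passed as lower, and with miR-452 3 and 4. BUB3, an adaptor of the checkpoint kinases, passed in none of the comparisons with untransfected cells in either line, and BUB1B in none of those in PC3.

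MAD2L1, which encodes the checkpoint protein that holds CDC20 inactive, was lowest with miR-224 in both lines. PC3 arrays gave 9.31 and 9.07, 8.97 and 8.98, 8.40 and 8.34, and 8.74 and 8.73. DU145 arrays gave 8.76 and 8.82, 8.38, 8.18 and 8.14, and 8.27 and 8.50. The miR-224 arrays were below all other arrays of their line. In PC3 MAD2L1 fell by 0.82 ± 0.09 with miR-224 against untransfected cells (1.77-fold, adjusted p = 0.000315) and by 0.61 ± 0.09 against the scrambled mimic (0.00115), both under every alternative. In DU145 the fall against untransfected cells was 0.63 ± 0.10 (adjusted p = 0.00368). That fall passed without any 1 array, and under 12 of 13 alternatives in all (highest adjusted p = 0.0566). The change against the scrambled array was -0.22 ± 0.12 (0.524).

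BUB1, a checkpoint kinase at kinetochores, lay at 10.28 and 10.21, 9.95 and 9.87, 9.82 and 9.80, and 9.79 and 9.80 in PC3. In DU145 it lay at 9.87 and 9.89, 9.62, 9.80 and 9.65, and 9.00 and 9.28. The miR-452 arrays of DU145 were clearly apart, whereas both mimics coincided in PC3. BUB1 fell with miR-452 by 0.45 ± 0.08 in PC3 (adjusted p = 0.00294) and by 0.74 ± 0.11 in DU145 (0.00316), under every alternative. The difference between lines in the miR-452 change did not pass for BUB1 or for any other mitosis gene.

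The passenger complex partners are CDCA8, BIRC5 and INCENP. CDCA8, which encodes borealin and places AURKB at centromeres, was lowest with miR-452 in both lines. It lay at 9.56 and 9.56, 9.14 and 9.15, 8.97 and 9.03, and 8.70 and 8.82 in PC3. DU145 gave 9.40 and 9.40, 9.08, 9.19 and 9.08, and 8.54 and 8.77. The 2 miR-452 arrays lay below every other array of their line. CDCA8 fell with miR-452 by 0.80 ± 0.08 in PC3 (adjusted p = 0.000121) and by 0.74 ± 0.10 in DU145 (0.00229), both under every alternative. Against the scrambled mimic it fell by 0.38 ± 0.08 in PC3 (adjusted p = 0.0149, but 0.058 without scrambled array b, 0.0515 without scrambled array c and 0.127 without miR-452 array b). The DU145 change was -0.42 ± 0.12 (0.115). All 3 genes, with BIRC5 (survivin) and INCENP, the scaffold, fell with the scrambled mimic in PC3, and in DU145 BIRC5 alone did.

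In anaphase, CDC20 activates the anaphase-promoting complex, UBE2C is its ubiquitin-conjugating enzyme and PTTG1 (securin) is its substrate. With the scrambled mimic none of these 3 genes passed in limma in either line. At an unadjusted p under 0.05, 1 passed in PC3 and 0 in DU145, and the medians were -0.11 and -0.03. All 3 fell with miR-224 in PC3 and all 3 with miR-452 in DU145 against untransfected cells.

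CDC20 lay at 10.51 and 10.55 on untransfected PC3 arrays, 10.48 and 10.36 with the scrambled mimic, 9.84 and 9.66 with miR-224 and 10.32 and 10.30 with miR-452. DU145 gave 10.55 and 10.58, 10.51, 10.45 and 10.46, and 10.10 and 10.22. The lowest arrays were thus those of miR-224 in PC3 and of miR-452 in DU145, with no overlap. With miR-224 in PC3 CDC20 fell by 0.78 ± 0.09 against untransfected cells (1.72-fold, adjusted p = 0.000334) and by 0.67 ± 0.09 against the scrambled mimic (0.000543), both under every alternative. In DU145 the same changes were -0.11 ± 0.09 and -0.05 ± 0.10. With miR-452 in DU145 it fell by 0.41 ± 0.09 against untransfected cells (adjusted p = 0.0109). That fall passed under 10 of 13 alternatives, the highest adjusted p being 0.334, and did not pass without untransfected array b or c.

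PTTG1 lay at 8.91 and 8.71, 8.70 and 8.72, 8.41 and 8.24, and 8.41 and 8.38 in PC3. DU145 gave 8.36 and 8.29, 8.37, 8.22 and 8.18, and 7.85 and 7.89. Both mimics lay below both control groups in PC3, and in DU145 the miR-452 arrays were lowest. Against the scrambled mimic PTTG1 fell by 0.39 ± 0.09 with miR-224 in PC3 (adjusted p = 0.0137, but 0.0624 without scrambled array c and 0.16 without miR-224 array b). It fell by 0.50 ± 0.10 with miR-452 in DU145 (0.0435), which passed under 6 of 12 alternatives. Among those that it did not pass were leaving out untransfected array b or c or miR-224 array a or c, and subtracting 16 before the logarithm (0.0876). UBE2C lay at 8.91 and 8.95, 8.75 and 8.71, 8.44 and 8.38, and 8.57 and 8.61 in PC3, where both mimics lay below both control groups.

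With the scrambled mimic 8 of 8 spindle and cytokinesis genes passed as lower in PC3 and 3 in DU145. The PC3 counts were 5 with miR-224 and 8 with miR-452, and those of DU145 were 3 and 6. HMMR, a spindle protein that also binds hyaluronan, lay at 9.33 and 9.25, 8.69 and 8.79, 8.68 and 8.63, and 8.76 and 8.91 in PC3. DU145 gave 9.02 and 8.93, 8.64, 8.34 and 8.08, and 8.35 and 8.75. It was lowest with miR-224 in both lines, though in PC3 only just below the scrambled arrays. HMMR fell with miR-224 against untransfected cells by 0.63 ± 0.08 in PC3 (adjusted p = 0.000957), under every alternative. In DU145 it fell by 0.76 ± 0.14 (0.00662, and 0.05 without untransfected array b and 0.0517 without miR-224 array c).

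ANLN (anillin), a scaffold of the contractile ring, lay at 11.36 and 11.26, 11.00 and 11.09, 11.05 and 10.98, and 10.96 and 10.96 in PC3. In DU145 it lay at 11.44 and 11.51, 11.11, 11.34 and 11.19, and 10.82 and 10.99. The miR-452 arrays were the lowest in both lines. The DU145 fall with miR-452 was 0.57 ± 0.10 (adjusted p = 0.00546, and 0.055 without untransfected array c).

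The 6 chromosome structure genes encode topoisomerase II alpha, Ki-67 and condensin subunits. With the scrambled mimic 6 passed as lower in PC3 and 4 in DU145. The counts were 4 and 5 with miR-224, and 4 and 3 with miR-452, in PC3 and DU145.

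TOP2A, which untangles chromosomes, lay at 10.85 and 10.65, 10.29 and 10.30, 10.04 and 10.27, and 10.03 and 10.09 in PC3. DU145 gave 10.93 and 10.93, 10.55, 10.63 and 10.49, and 10.54 and 10.69. Its PC3 falls were 0.59 ± 0.10 with miR-224 (adjusted p = 0.0035) and 0.69 ± 0.10 with miR-452 (0.00104), both under every alternative. MKI67, the proliferation marker Ki-67, lay at 10.63 and 10.42, 10.09 and 10.03, 9.98 and 10.17, and 10.13 and 10.10 in PC3, and at 10.91 and 10.87, 10.48, 10.57 and 10.51, and 10.67 and 10.73 in DU145. Transfected groups overlapped in PC3 and all lay below untransfected cells. MKI67 fell by 0.47 ± 0.10 with the scrambled mimic in PC3 (adjusted p = 0.0124, but 0.163 without untransfected array b and 0.0702 without scrambled array c).

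NCAPG, a condensin I subunit, lay at 9.92 and 9.80, 9.22 and 9.23, 9.38 and 9.43, and 9.47 and 9.53 in PC3. DU145 gave 10.14 and 10.17, 9.59, 9.86 and 9.77, and 9.80 and 9.90. The scrambled arrays were the lowest in both lines. NCAPG fell by 0.63 ± 0.08 with the scrambled mimic in PC3 (adjusted p = 0.00193), under every alternative. The DU145 fall was 0.56 ± 0.11 (adjusted p = 0.0189, but 0.113 and 0.116 without untransfected arrays b and c). SMC4, a condensin ATPase, lay at 10.97 and 10.79, 10.41 and 10.53, 10.72 and 10.75, and 10.66 and 10.67 in PC3, and at 10.39 and 10.39, 9.69, 10.21 and 10.03, and 10.12 and 10.27 in DU145. It too was lowest with the scrambled mimic in both lines.

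**Figure D3:**
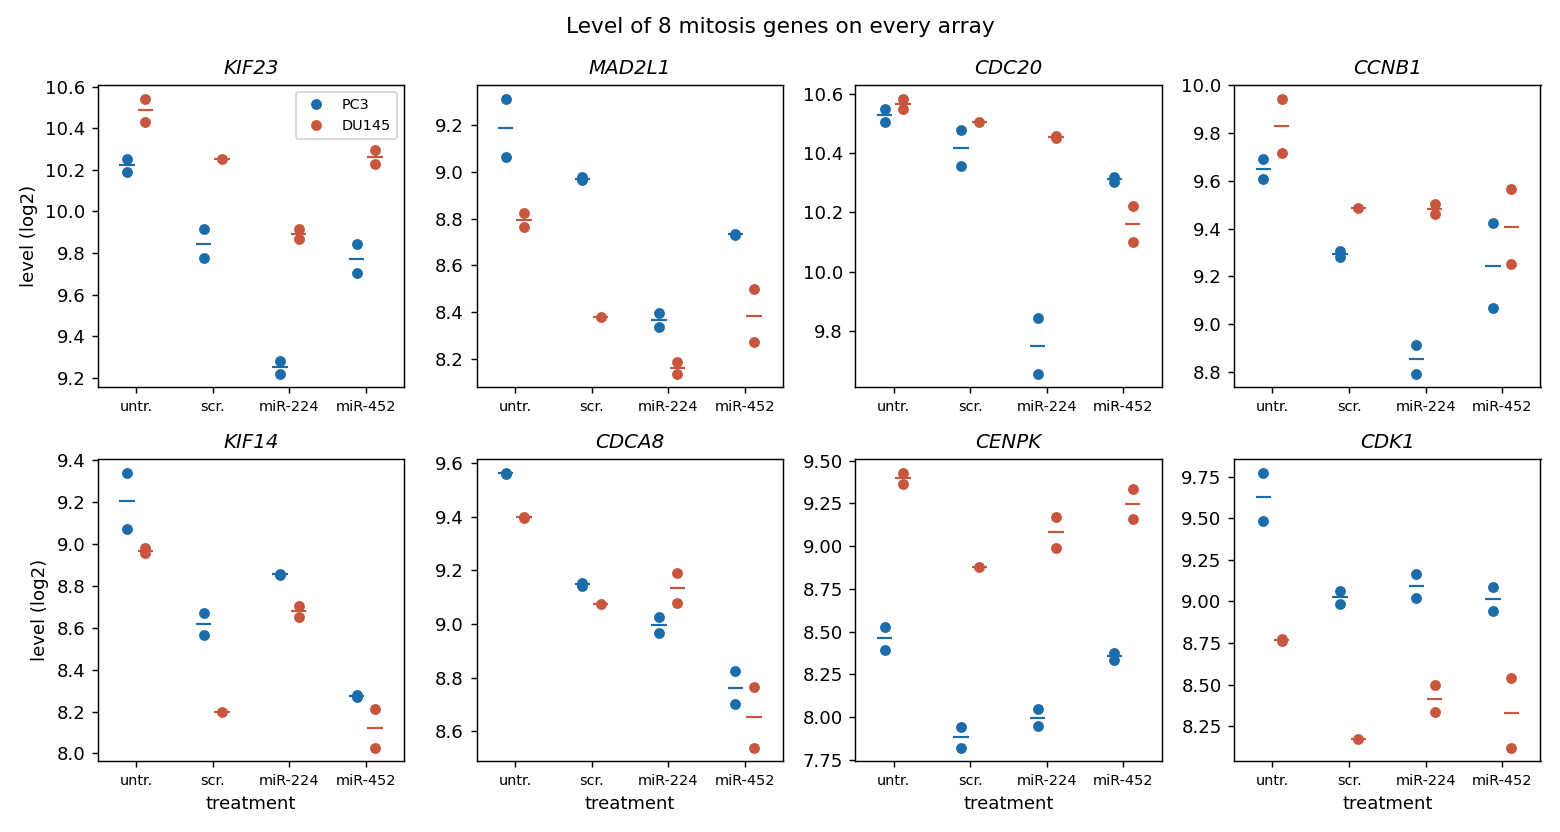
Log2 level (vertical axis, own scale per panel) of 8 mitosis genes on every array by treatment (untr., untransfected; scr., scrambled), PC3 in blue and DU145 in red, with points for arrays and bars for group means. By group mean KIF23 and MAD2L1 are lowest with miR-224 in both lines, KIF14 and CDCA8 with miR-452, and CDC20 with miR-224 in PC3 and miR-452 in DU145.

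The genes that were lowest on both arrays of a mimic can be listed. Both miR-224 arrays of PC3 lay below all other arrays of the line for 9 mitosis genes (7.97% of all genes): AURKB, CCNB1, CDC25C, KIF23, MAD2L1, CDC20, UBE2C, HMMR and ASPM. In DU145 they did so for 5 (8.21%): KIF4A, KIF23, MAD2L1, HMMR and NCAPH. For miR-452 the counts were 10 in PC3 (10.3%) and 16 in DU145 (12.3%). AURKA was among the 10 and BUB1, CENPF, CDC20 and PTTG1 among the 16, with CCNA2, KIF20A, SKA1, BIRC5, CDCA8 and ANLN in both.

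The mimics were also compared with each other, with the spread estimated over all 4 groups of the line. In PC3, 6 genes were higher with miR-224 than with miR-452 (12.5% of all genes) and 7 lower (5.99%). KIF14 was higher by 0.58 ± 0.09 (adjusted p = 0.0014), and CDC20 and KIF23 were lower by 0.56 ± 0.09 (0.00102) and 0.52 ± 0.09 (0.00145). These 3 passed under every alternative. CCNA2 was higher by 0.50 ± 0.10 (adjusted p = 0.00607, but 0.0683 without miR-224 array b and 0.0518 without miR-452 array b). The 13 calls came to 7 and 5 without miR-224 arrays a and b, and to 5 without either miR-452 array.

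In DU145, 9 were higher with miR-224 (3.53% of all genes) and 1 lower, KIF23 (2.38%). The higher ones were KIF20A at 0.62 ± 0.10 (adjusted p = 0.00756), NEK2 at 0.59 ± 0.09 (0.0066), BUB1 at 0.58 ± 0.11 (0.0143), KIF14 at 0.56 ± 0.09 (0.00832), CENPF, CCNA2, CDCA8, UBE2C and PTTG1. None of the 10 passed without miR-224 array a. Without miR-224 array c 2 passed, without either untransfected array 6, and without miR-452 array c 23. KIF14 and CCNA2, higher, and KIF23, lower, passed in both lines with the same sign. CDC20 was 0.56 lower with miR-224 in PC3 and 0.29 ± 0.09 higher in DU145, where it did not pass (adjusted p = 0.0825).

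**Figure D4:**
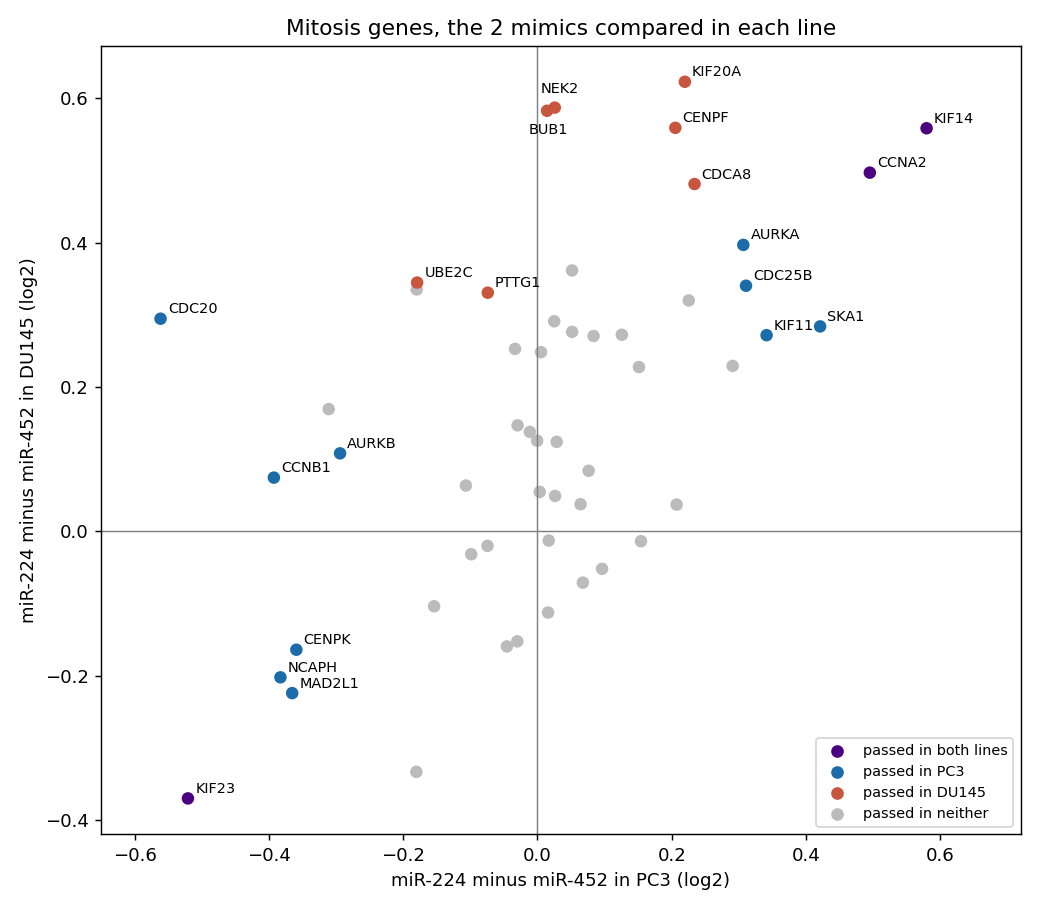
Log2 difference between miR-224 and miR-452 for each of 53 mitosis genes, in PC3 (horizontal axis) and in DU145 (vertical axis); colours mark where a gene passed. KIF14 and CCNA2 lie top right and KIF23 bottom left, while CDC20 lies at -0.56 in PC3 and 0.29 in DU145.

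The lines differed in few genes. For miR-224 against untransfected cells, the change was lower in PC3 than in DU145 for 4 mitosis genes (0.794% of all genes): CDC20 by 0.67 ± 0.12 (adjusted p = 0.00766), UBE2C by 0.49 ± 0.10 (0.0163), CDC25C by 0.50 ± 0.12 (0.036) and AURKB by 0.40 ± 0.10 (0.0402). For miR-224 against the scrambled mimic it was CDC20 alone, by 0.62 ± 0.13 (0.0378; 0.245% of all genes). The CDC20 difference against untransfected cells gave adjusted p = 0.0522 without PC3 miR-224 array b. Without that array none of the 4 passed, and fewer passed without PC3 untransfected array c (1), PC3 miR-224 array a (2), either DU145 untransfected array (1), DU145 miR-224 array a (1) or c (2). The CDC20 difference against the scrambled mimic did not pass without any 1 of 9 arrays, the largest adjusted p being 0.184 without PC3 miR-224 array b.

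No mitosis gene passed in limma for a difference between lines in the scrambled change (0.207% of all genes passed in either direction), the miR-452 change against the scrambled mimic (0.62%) or that against untransfected cells (2.88%). At an unadjusted p under 0.05 the counts were 0, 4 and 3. The third count was 1 without DU145 miR-452 array c. A p that misses the threshold does not show that the lines respond alike, and the single DU145 scrambled array widens 2 of these comparisons.

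Another 77 genes of mitosis outside the 53 were measured. In PC3, 44 passed as lower with the scrambled mimic (10.9% of all genes), 41 with miR-224 (6.85%) and 54 with miR-452 (14.1%) against untransfected cells, and none as higher. In DU145, 20 (9.22% of all genes), 28 (15.5%) and 50 (19.9%) passed as lower, with 1 higher for the scrambled mimic. In DU145 9, 12 and 5 of the 77 lay above 0. ANAPC1, the largest subunit of the anaphase-promoting complex, and ZWILCH, a kinetochore subunit that recruits dynein, were lowest with miR-224 in both lines.

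ANAPC1 lay at 9.14 and 8.97 untransfected, 8.63 and 8.68 with the scrambled mimic, 8.15 and 8.11 with miR-224 and 8.61 and 8.69 with miR-452 in PC3, and at 8.26 and 8.45, 7.95, 7.39 and 7.29, and 8.20 and 8.10 in DU145. ZWILCH lay at 9.80 and 9.66, 9.34 and 9.30, 8.84 and 8.84, and 9.38 and 9.44 in PC3, and at 9.81 and 9.81, 9.45, 8.83 and 8.71, and 9.47 and 9.57 in DU145. No miR-224 array overlapped any other group. Against untransfected cells ANAPC1 fell with miR-224 by 0.93 ± 0.08 in PC3 (adjusted p = 0.000102) and 1.01 ± 0.10 in DU145 (0.000507). ZWILCH fell by 0.90 ± 0.08 (0.000102) and 1.04 ± 0.09 (0.000373). Against the PC3 scrambled mimic they fell by 0.53 ± 0.08 (0.00165) and 0.48 ± 0.08 (0.00207). All of these passed under every alternative. Against the single DU145 scrambled array the miR-224 changes were -0.60 for ANAPC1 and -0.68 for ZWILCH, and neither held under every alternative.

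UBE2S, which extends ubiquitin chains for the anaphase-promoting complex, was lowest with miR-452 in both lines. It lay at 10.20 and 10.25, 10.26 and 10.19, 9.86 and 9.80, and 9.66 and 9.70 in PC3, and at 9.84 and 9.80, 10.10, 9.72 and 9.64, and 9.15 and 9.28 in DU145. UBE2S fell with miR-452 against the scrambled mimic by 0.54 ± 0.08 in PC3 (adjusted p = 0.0018, under every alternative) and by 0.88 ± 0.11 in DU145 (0.00949). The DU145 fall passed without any 1 array, and under 11 of 12 alternatives in all. In PC3 UBE2S fell with miR-224 too, by 0.39 ± 0.08 against the scrambled mimic (adjusted p = 0.0052, but 0.066 without miR-224 array b) and by 0.39 ± 0.08 against untransfected cells (0.00857, but 0.0538 without untransfected array c and 0.0925 without miR-224 array b). Between the mimics the PC3 difference was 0.15 ± 0.08 and did not pass (0.223). Among 13 cell cycle brakes (CDK inhibitors, RB family and DREAM complex genes), 3, 2 and 2 passed as lower against untransfected PC3 cells with the scrambled mimic, miR-224 and miR-452, and 1, 1 and 0 as higher. In DU145 3, 4 and 7 passed as lower and none as higher. The shares over all genes are those given for the same comparisons above. E2F5, a repressive E2F, fell by 1.29 ± 0.18 with miR-224 against untransfected DU145 cells (adjusted p = 0.00239, under every alternative). Its levels went from 8.03 and 8.06 to 6.81 and 6.69. With miR-452 E2F5 fell there too, by 0.71 ± 0.18 (adjusted p = 0.0206), which passed under 9 of 13 alternatives. Its change with the scrambled mimic was -0.54, on a single array. Against that array the miR-224 change was -0.76 and did not pass. The DU145 difference between the mimics, -0.59 ± 0.18, did not pass either (0.0952).

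The promoter letters were also set against the changes. Of 1126 genes outside the list with both CCAAT and TTTGAA, 11.5% fell in PC3 under the scrambled mimic. Among 7121 with neither the share was 11.3%. In DU145 the shares were 11.2% and 9.39%. Of the 24 mitosis genes with both, 87.5% passed as lower in PC3 and 45.8% in DU145, and of the 3 with neither 3 and 2 genes did. These shares were not tested.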

How the data were processed

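The authors deposited log2 levels made with the RMA16 option of GeneSpringGX, normalizing PC3 and DU145 arrays separately, per the series' design text. The log2 scale was read from the values (4.49 to 14.18). The option is understood to add 16 before the logarithm, which was not stated; if so, changes of weak genes are understated. Probe set definition and build were not given in the sources used here. Of 28869 features, 19310 carried 1 symbol and were averaged to 18377 genes; BIRC5 is the mean of 2 features. Each line was fitted with 4 group means in limma 3.58.1 (R 4.3.3, statmod 1.5.0), two-sided, with Benjamini-Hochberg adjustment. Residual degrees of freedom were 4 in PC3 and 3 in DU145, where the single scrambled array was assumed to vary like the other groups, so the number of arrays limits the precision. Line differences came from a fit of all 15 arrays with 7. The fitting was tested on simulated data.

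The members, role lists and comparisons were chosen with earlier results of these data known, so no list is independent evidence. Genes given on every array were, per role and line, the smallest moderated F p, plus CDK1, CCNB1, PLK1, AURKA, TOP2A, MKI67 and FOXM1. Beyond these, the text names the largest called changes of a comparison, up to 4 per direction, and of the other mitosis genes and brakes the smallest p, up to 3 per direction. The array levels of AURKB, CDC25B, KIF11, KIF20B, SPC25 and UBE2C, and the genes in lists of calls or extremes, were added after their values were seen. So were the group means of KIF18A, the scrambled changes of CENPI and the E2F5 values other than its miR-224 fall in DU145. Alternatives were quantile normalization within the line, 16 subtracted before the logarithm, genes under percentile 20 left out, trend and robust moderation, all 15 arrays in 1 fit, a block for the replicate letter, and leaving out each array in turn. "Under every alternative" means all of these. Where a result is given with alternatives that it did not pass, the list need not be complete. The replicate block alone ended 67 of the calls checked for named genes.

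The labels do not say whether array letters a to c pair the samples, and the fits other than the replicate block did not pair them. Across genes, deviations of same-letter arrays from their group means correlated at -0.147 to 0.273 in PC3, and in DU145 at -0.31 to 0.0508. Deviations within a group mirror each other, so these correlations cannot decide whether the letters pair the samples.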

Additional observations from a re-analysis of the deposited data

Results flagged for a closer look

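Differences between PC3 and DU145 that passed their own test are CDC20, at -0.62 (log2, PC3 minus DU145) for miR-224 against the scrambled mimic, and for miR-224 against untransfected cells CDC20 at -0.67, UBE2C at -0.49, CDC25C at -0.50 and AURKB at -0.40. In each the PC3 change was the lower one.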

How the results depend on the processing

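Of 138 calls checked for single mitosis genes, not all of them given above, 32 passed under every alternative and none changed sign. The counts of mitosis genes that passed moved more, and the cause was not tested. Quantile normalization gave 27 genes for the scrambled mimic against untransfected cells in PC3 and 11 in DU145, 11 for miR-224 and 24 for miR-452 against untransfected DU145 cells, 5 for miR-452 against scrambled in PC3 and 3 in DU145, and 1 for miR-224 against scrambled in DU145. For the miR-224 difference between lines it gave 2 against scrambled and 10 against untransfected cells. Leaving out genes under percentile 20 gave 4 and 2 for miR-452 against scrambled in PC3 and DU145. Subtracting 16 gave 0 for miR-452 against scrambled and 14 for the scrambled mimic against untransfected cells in DU145, and 0 and 2 for the 2 line differences of miR-224. Trend and robust moderation gave 5 for miR-452 against scrambled in each line, and in DU145 6 for miR-224 against scrambled and 16 between the mimics, and 7 for the line difference of miR-224 against untransfected cells. All 15 arrays in 1 fit gave 5 for miR-452 against scrambled in each line, and in DU145 4 for miR-224 against scrambled and 17 between the mimics.

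The replicate block, with letters whose meaning is not in the labels, gave 4 for miR-224 against scrambled, 15 against untransfected cells and 6 against miR-452 in PC3. In DU145 it gave 0 for miR-452 against scrambled, and 6, 2 and 8 for the scrambled mimic, miR-224 and miR-452 against untransfected cells. Both line differences of miR-224 came to 0 in it.

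Leaving out 1 array gave, in PC3, 3 to 10 genes for miR-224 and 0 to 3 for miR-452 against scrambled, 5 to 15 between the mimics, and 2 to 41, 13 to 35 and 15 to 44 for the scrambled mimic, miR-224 and miR-452 against untransfected cells. In DU145 these were 0 to 5, 0 to 5, 0 to 23, 0 to 40, 3 to 32 and 10 to 49. For the line differences they were 0 to 1 (miR-224 against scrambled), 0 to 6 (miR-224 against untransfected) and 0 to 1 (miR-452 against untransfected). With 2 arrays per group, and a single DU145 scrambled array that cannot be left out of its own comparisons, a gene that missed the threshold is not shown to be unchanged.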
